A study of Mus musculus with 16 samples.

Results

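Mouse genes named Zfp followed by a digit encode zinc finger proteins, and 190 array probes for 155 such genes were followed through capture of labelled RNA from Neuro 2a cells, a mouse neuroblastoma line. Cells were exposed to hydrogen peroxide or left untreated, and all RNA, in every group, was derivatized with ARP (aldehyde reactive probe), which attaches biotin to abasic sites, where a sugar has lost its base. The 4 groups of 4 arrays were Ox-ARP (peroxide, RNA then pulled down on streptavidin beads), Ox-total (peroxide, no pull-down), Basal-ARP (untreated, pulled down) and Basal-total (untreated, no pull-down). The labels give the strain as C57BL/6J, and neither dose nor exposure time of the peroxide is given in the sources used here. No group held RNA captured without ARP, so binding to the beads for reasons other than abasic sites cannot be told apart. In such bulk samples, fewer cells of a type and less RNA per cell cannot be told apart either.

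The probes were chosen by their platform symbol and by detection, that is, a detection p under 0.01 throughout the 4 arrays of any group. Of 380 Zfp probes for 280 genes on the platform, 190 passed and 190 did not. Of those that did not pass, 160 were detected on no array and 8 reached 3 arrays of a group at most. The 190 made up part of 10794 probes kept out of 25697. Detection on all 4 arrays held for 183 of them in Ox-ARP, 172 in Ox-total, and for 184 in Basal-ARP and 178 in Basal-total, and 168 probes (139 genes) were detected on all 16 arrays. Probes that passed through a single group numbered 2 for Ox-ARP, 0 for Ox-total, 3 for Basal-ARP and 1 for Basal-total, and for these a difference from the other groups was part of the choice. They were Zfp771 (probe ILMN_2848354) and Zfp335 for Ox-ARP, Zfp189, Zfp457 and Zfp709 for Basal-ARP, and Zfp551 for Basal-total. Among called probes, those of Zfp322a, Zfp599 and Zfp940 and 2 of Zfp212 passed through the captured groups alone, and 1 Zfp386 probe through the total groups alone, so their differences on capture were likewise part of the choice. Just inside the threshold, the highest detection p of the best group was 0.00877 for Zfp940, Zfp189 and Zfp758, 0.00752 for Zfp457 and 0.00627 for Zfp418. Just outside it were a second Zfp523 probe (0.01), Zfp113 and Zfp398 (0.0125 each), Zfp169 (0.0138) and Zfp160 (0.015).

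Most Zfp genes encode proteins with tandem C2H2 fingers, small loops folded around a zinc ion by paired cysteines and histidines, each of which reads a short stretch of DNA. Many carry a KRAB domain, which recruits the corepressor Trim28 and the histone methyltransferase Setdb1 to silence retroelements and imprinted genes, and many sit in clusters of closely related neighbours. The name also covers proteins of other kinds: CCCH proteins that bind AU-rich mRNA and call in the CCR4-NOT deadenylase, factors that act on ribosomes or double-stranded RNA, ubiquitin ligases and developmental regulators.

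The mean scanner intensity of an array ran from 327.7 to 532.8, and 10351 to 11068 probes were detected per array, 180 to 189 of them Zfp probes. Replicates 1 and 2 of each group lay on one chip and replicates 3 and 4 on another, and because each group held its own positions within a chip, position and group cannot be told apart. Of the neuroblastoma and neuronal markers, 9 of the 11 on the platform were detected on all 16 arrays (Chga, Dbh, Elavl2, Elavl4, Gata2, Gata3, Hand2, Map2 and Stmn2), and Mycn on none. Of 6 fibroblast markers 0 were detected on all arrays, and of 3 macrophage and blood markers 3 were detected on none. Among 3 glial markers, Mbp was detected on all arrays, and Aqp4 and Gfap on none. Some of the line's own markers moved too. Of 14 probes 1 rose and 1 fell on capture after peroxide (7.14% each, beside 13.6% and 13.4% of all probes). On capture without it 6 rose and 0 fell (42.9% and 0%, beside 16.7% and 15.2%). In Ox-ARP against Basal-ARP 1 rose and 3 fell (7.14% and 21.4%, beside 13.8% and 15.4%). The fibroblast marker Dcn rose in that last comparison (0.43 ± 0.14, adjusted p = 0.029), while Col1a1, Col1a2, Col3a1 and Lum were detected on no array.

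All levels below are log2 of the normalized intensity, and quantile normalization forces a common distribution on the arrays, so a difference is a shift in relative representation. A difference is given in log2 units ± the standard error from limma (4 arrays in each group), and "called" means an adjusted p (Benjamini-Hochberg, across all 10794 probes) under 0.05. A higher probe in captured RNA is thus one whose share of the captured pool exceeded its share of the unselected pool. Nothing states whether the arrays of a group came from separate cultures, so the p-values measure the spread between these arrays, which may be technical. The median Zfp level per array lay between 7.08 and 7.46, and that of all probes was 8.13.

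Without peroxide, capture shifted Zfp transcripts in both directions. In Basal-ARP against Basal-total, 32 Zfp probes rose, 17 fell and 141 were not called, and the median difference was 0.08 against 0.03 over all probes. Across all probes 16.7% were called higher and 15.2% lower, and of the Zfp probes 16.8% and 8.95%. The share raised was thus close to that of all probes, and the share lowered was smaller. Among the 168 probes detected on all 16 arrays, 29 rose and 14 fell (17.3% and 8.33%, beside 16.8% and 15.5% of all probes so detected). Without normalization between arrays the calls were 3 higher and 5 lower (1.58% and 2.63%, beside 1.14% and 8.46% of all probes).

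**Figure D1:**
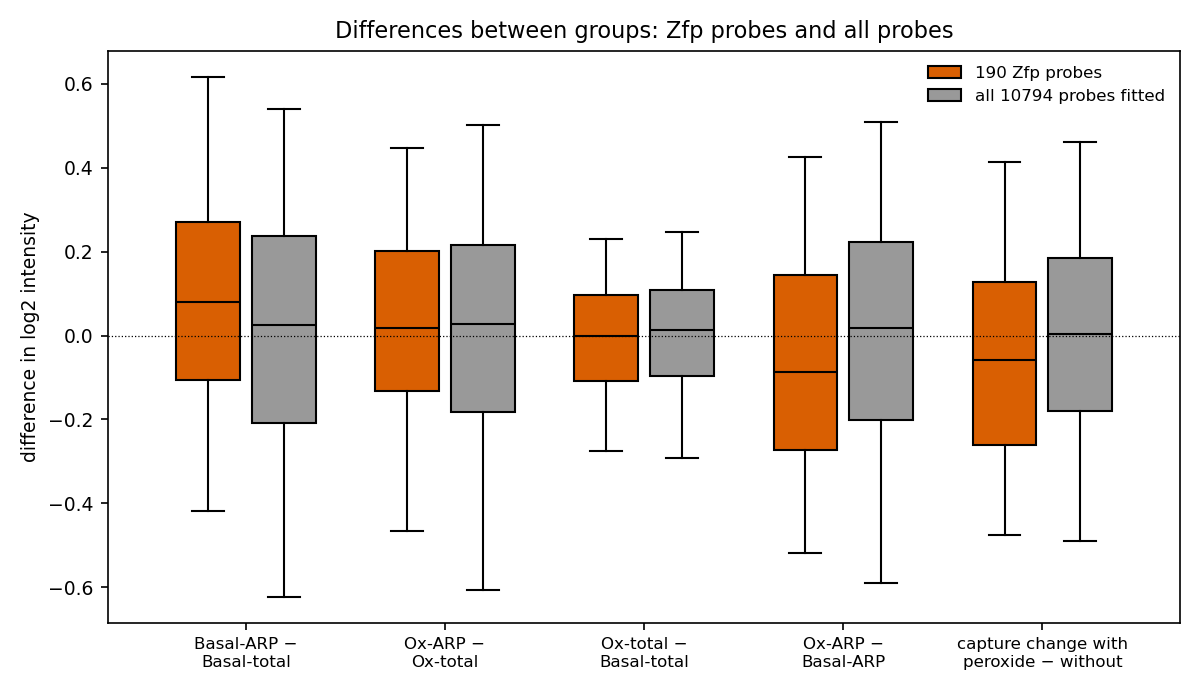
Difference in log2 intensity for each of the 5 comparisons (groups named under the axis), with the 190 Zfp probes in orange and all 10794 probes fitted in grey; the line is the median, the box the quartiles and the whiskers the 5th and 95th percentiles. The Zfp median lies above the all-probe median in Basal-ARP minus Basal-total (0.08 and 0.03) and below it in Ox-ARP minus Basal-ARP (-0.09 and 0.02).

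Zfp420, Zfp317, Zfp763 and Zfp60, all C2H2 zinc finger genes, were among the most raised on capture of untreated RNA. Zfp420 read 9.19, 9.28, 9.05 and 9.14 on the Basal-ARP arrays, against 8.19, 8.58, 8.49 and 8.56 on the Basal-total arrays. The groups did not overlap, and the difference was 0.72 ± 0.10 (adjusted p = 4.5e-05). Zfp317, a KRAB zinc finger gene, had 7.45, 7.83, 7.82 and 7.7 in Basal-ARP and 6.93, 7.11, 7.12 and 6.77 in Basal-total on one probe, again without overlap. That probe rose by 0.72 ± 0.11 and another by 0.62 ± 0.10, while the gene's remaining probe gave 0.25 ± 0.13 and was not called. Zfp763 rose on both of its probes (0.72 ± 0.10 and 0.66 ± 0.16). Zfp60 read 8.6, 8.53, 8.68 and 8.43 in Basal-ARP against 7.98, 8.01, 7.83 and 7.92 in Basal-total, a difference of 0.62 ± 0.09 (adjusted p = 6.3e-05) with no overlap between the groups. Zfp595 (0.66 ± 0.09), Zfp334 (0.65 ± 0.13), Zfp275 (0.65 ± 0.15) and Zfp654 (0.63 ± 0.14) completed the leading set. Of these, only the calls of Zfp334 and Zfp275 held under each alternative processing tried. The largest positive difference of all, 0.76 ± 0.33 for Zfp979, was not called (adjusted p = 0.089), since its levels spread over 8.21 to 9.73 in Basal-ARP and 7.87 to 8.99 in Basal-total.

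Zfp326, whose protein couples RNA polymerase II elongation to splicing, showed the deepest loss on capture, but not on all of its probes. On probe ILMN_2481391 it read 7.5, 7.44, 8.15 and 7.65 in Basal-ARP, against 8.33, 9.05, 9.47 and 8.32 in Basal-total. No Basal-ARP array reached the lowest Basal-total array, and the difference was -1.11 ± 0.26 (adjusted p = 0.0044). A second probe had -0.99 ± 0.30 (adjusted p = 0.019), with Basal-ARP replicate 3 at 8.16 inside the Basal-total range of 8 to 9.12. The call of this second probe was lost without replicate 2 or 4 of Basal-ARP and without replicate 3 of Basal-total. The remaining probe gave 0.16 ± 0.16 and read 9.51 to 10.57 in Basal-ARP against 9.77 to 9.89 in Basal-total. After peroxide none of the 3 probes was called: ILMN_2481391 read 7.38, 7.82, 8.4 and 7.91 in Ox-ARP against 8.8, 8.09, 8.27 and 8.93 in Ox-total, overlapping groups with a difference of -0.64 ± 0.26 (adjusted p = 0.082). The test of the difference between the captures did not call it either (0.47 ± 0.37, adjusted p = 0.54). Which transcripts these probes read was not tested.

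Zfp91, which encodes a ubiquitin ligase of noncanonical NF-kappaB signalling, read 8.17, 8.2, 8.13 and 8.23 in Basal-ARP and 8.54, 9, 8.89 and 8.77 in Basal-total. It fell by 0.62 ± 0.11 (adjusted p = 0.0004), and its groups stood clearly apart. Zfp933 had 5.72, 5.82, 5.8 and 5.74 in Basal-ARP, against 5.93, 6.49, 6.53 and 6.57 in Basal-total (-0.61 ± 0.13, adjusted p = 0.0017). The groups did not overlap, although Basal-total replicate 1 lay close to the captured arrays. Other losses were Zfp768 (-0.65 ± 0.16), Zfp386 (-0.62 ± 0.15), Zfp382 (-0.53 ± 0.15), the SCAN domain gene Zfp213 (-0.47 ± 0.14), Zfp691 (-0.44 ± 0.12) and Zfp551 (-0.43 ± 0.13, a probe kept through Basal-total alone). The Zfp386 probe here was detected on 1 Basal-ARP array. The call of Zfp213 was lost without replicate 3 of Basal-ARP or replicate 1 of Basal-total, and that of Zfp551 without replicate 2 of either group.

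After peroxide, capture again raised and lowered Zfp transcripts, with fewer calls. In Ox-ARP against Ox-total, 22 probes rose, 16 fell and 152 were not called, beside 13.6% higher and 13.4% lower over all probes (11.6% and 8.42% of the Zfp probes). Both shares were thus below those of all probes. The median difference was 0.02 for Zfp probes and 0.03 for all. Among probes detected on all 16 arrays, 15 rose and 13 fell, so 7 of the 22 raised probes were not detected throughout. On all 7 the Ox-total group was the dim one, and on 2 of them it was detected on 0 arrays. The split was 22 higher to 10 lower with median scaling (11.6% and 5.26%, beside 13.5% and 10.1% of all probes). It was 38 to 12 with the authors' processed values (20% and 6.32%, beside 20.4% and 10.8% of all probes).

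Zfp763 was the most raised. Its probe ILMN_2845839 read 9.17, 8.72, 8.83 and 8.65 in Ox-ARP, against 7.71, 7.64, 7.8 and 7.42 in Ox-total. All captured arrays lay above all total arrays, by 1.20 ± 0.16 on average (adjusted p = 3.7e-05), and the gene's other probe rose by 0.56 ± 0.10. Zfp334 had 8.29, 8.12, 8.16 and 7.96 in Ox-ARP and 7.82, 7.61, 7.28 and 7.42 in Ox-total, a rise of 0.60 ± 0.13 (adjusted p = 0.0023) without overlap. Zfp787 (0.51 ± 0.12), Zfp212 (0.50 ± 0.14), Zfp553 (0.48 ± 0.13), Zfp599 (0.47 ± 0.15), Zfp60 (0.46 ± 0.09) and Zfp667 (0.44 ± 0.12) followed. The probes of Zfp212, Zfp599 and Zfp667 were each detected on 1 Ox-total array, so their sizes rest on values that were mostly not detected. The brightest Zfp212 probe had closer means, 10.46 in Ox-ARP against 10.17 in Ox-total. The brighter Zfp787 probe had 10.41 against 10.1. Zfp599 lost its call without replicate 2 of Ox-ARP or replicate 1 or 4 of Ox-total. Zfp940, detected on 4 arrays of Ox-ARP and 0 of Ox-total, was at least 1.1-fold higher after capture. In these folds the brighter group's mean is set against, per array, the lowest value of any detected probe or, where that is higher, the value of the dim probe.

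Zfp386 had the lowest captured values relative to total RNA after peroxide, but they lay near background. Its probe ILMN_3142440 read 5.47, 5.23, 5.89 and 5.3 in Ox-ARP, against 6.63, 6.51, 6.69 and 6.58 in Ox-total. The captured arrays all lay below the total arrays, and the fitted difference was -1.13 ± 0.14 (adjusted p = 1.5e-05). With 1 of the 4 Ox-ARP arrays above background, its size rests on values that were mostly not detected. The gene's second probe, kept through the total groups alone and detected on 1 Ox-ARP array, gave -0.65 ± 0.15. Zfp157 had 6.68, 6.54, 6.86 and 6.62 in Ox-ARP and 7.4, 7.29, 7.34 and 7.75 in Ox-total, a fall of 0.77 ± 0.21 (adjusted p = 0.011) with no overlap. Zfp346, whose protein binds double-stranded RNA, read 5.71, 5.74, 5.64 and 5.75 in Ox-ARP against 6.46, 6.31, 6.07 and 6.02 in Ox-total (-0.51 ± 0.11, adjusted p = 0.0032). Its groups were apart as well, although the gene's other probe gave 0.01 ± 0.13. Zfp207, whose protein binds spindle microtubules and the checkpoint protein Bub3, read 8.83, 8.75, 9.06 and 8.81 in Ox-ARP against 9.37, 9.22, 9.38 and 9.27 in Ox-total, a fall of 0.45 ± 0.09 (adjusted p = 0.0016). Zfp933 (-0.60 ± 0.13), Zfp691 (-0.57 ± 0.12), Zfp280b (-0.48 ± 0.13) and Zfp551 (-0.47 ± 0.13) fell too. Zfp11 (-0.47 ± 0.17, adjusted p = 0.049) lost its call in 22 of the 33 alternatives.

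Both capture comparisons, which share no array, called several of the same probes. There were 11 raised in both, which is 50% of the 22 raised after peroxide and 34.4% of the 32 raised without it: 2 each of Zfp212, Zfp763 and Zfp787, and 1 each of Zfp60, Zfp317, Zfp322a, Zfp334 and Zfp599. Another 7 fell in both, 43.8% of 16 and 41.2% of 17, namely Zfp346, Zfp386, Zfp423, Zfp551, Zfp691, Zfp692 and Zfp933. Of the 11 raised probes 3 were not detected on all 16 arrays. These, of Zfp212, Zfp322a and Zfp599, passed through the captured groups alone, so being raised in both was part of the choice. Both calls held on leaving out each single array for 8 of the 11, all but Zfp317, Zfp599 and 1 Zfp787 probe. The 8 include the Zfp212 and Zfp322a probes chosen in this way. Of the 7 lowered probes 2 were not detected throughout. The Zfp386 probe passed through the total groups alone and the Zfp551 probe through Basal-total alone, so their falls were likewise part of the choice. Both calls held for Zfp386, Zfp691 and Zfp933. Calls shared by both captures were not counted over all probes, so the percentages above have no background beside them. The calls of Zfp771 probe ILMN_2848354 had opposite signs, but it was detected on 0 Basal-ARP arrays and 1 Basal-total array, so its values without peroxide were at background on both sides and give no measured reversal. The same sign in both captures was seen for 67.9% of Zfp probes and 70.8% of all probes, and the correlation of the differences across probes, which are not independent replicates, was 0.56 for Zfp probes and 0.66 for all. Zfp322a was detected on 4 arrays of each captured group and 0 of each total group, and was at least 1.17-fold higher in Ox-ARP than in Ox-total and at least 1.17-fold higher in Basal-ARP than in Basal-total.

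**Figure D2:**
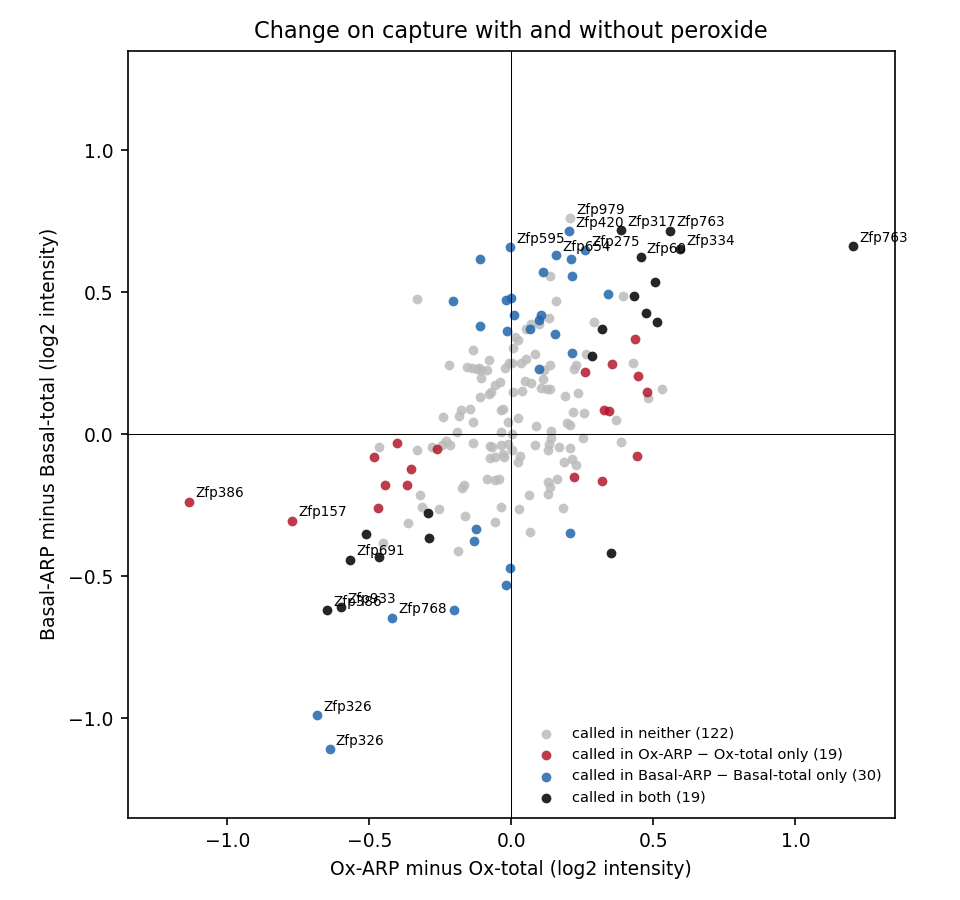
Each point is 1 of 190 Zfp probes, placed by its log2 difference on capture after peroxide (Ox-ARP minus Ox-total, horizontal) and without it (Basal-ARP minus Basal-total, vertical), coloured by where it was called. Zfp763 lies far right at 1.20 and 0.66, the 2 lowest points are probes of Zfp326, and Zfp386 lies far left at -1.13 and -0.24.

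Before capture, peroxide called 0 of 190 Zfp probes by limma in either direction. Across all probes 0.0556% were called higher and 0.195% lower in Ox-total against Basal-total, so few calls could fall among the Zfp probes. At an unadjusted p under 0.05 there were 20 Zfp probes and 1089 of 10794 in all. The median difference was 0.00 for Zfp probes and 0.01 for all.

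The smallest p was that of a Zfp704 probe, which read 6.48, 6.79, 6.67 and 6.81 in Ox-total against 7.31, 7.32, 7.19 and 7.14 in Basal-total. The groups did not overlap, and the difference was -0.55 ± 0.12 (adjusted p = 0.062). The gene's other probe gave -0.18 ± 0.15. Zfp148, a Krüppel-type factor of GC-rich promoters, had 7.95, 7.37, 8.02 and 8.1 in Ox-total and 8.32, 8.82, 8.75 and 8.33 in Basal-total, also without overlap (-0.69 ± 0.15, adjusted p = 0.078). With chip as a block these 2 probes were called (adjusted p = 0.033 and 0.037). On the other side, Zfp524 had 0.42 ± 0.13 (adjusted p = 0.23) and was not called.

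In captured RNA the peroxide comparison gave 47 calls, with more losses than gains. In Ox-ARP against Basal-ARP, 16 Zfp probes rose, 31 fell and 143 were not called, beside 13.8% higher and 15.4% lower over all probes (8.42% and 16.3% of the Zfp probes). The share lowered was close to that of all probes and the share raised was smaller. The median difference was -0.09 for Zfp probes and 0.02 for all, and 15 rose and 30 fell among those detected on all 16 arrays. The direction of this split depended on the scaling. Median scaling, which moved the median of all probes to 0.13, gave 21 higher and 11 lower (11.1% and 5.79%, beside 21.7% and 7.52% of all probes). No normalization, with a median of all probes of 0.18, gave 9 and 2 (4.74% and 1.05%, beside 9.85% and 2.33%). Relative to all probes the Zfp median was lower in each: it differed by -0.105 with quantile normalization and by -0.114 with either of the others. This gap was -0.06 without Basal-ARP replicate 3 and -0.068 without Ox-ARP replicate 1. The losses and gains named below are therefore relative to the array as a whole.

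Zfp157 fell most, with 6.68, 6.54, 6.86 and 6.62 in Ox-ARP against 7.52, 7.33, 8.23 and 7.93 in Basal-ARP. The groups did not overlap, and the difference was -1.08 ± 0.21 (adjusted p = 0.0011). Before capture the same probe had -0.61 ± 0.21 with peroxide (adjusted p = 0.29, not called). Zfp280b read 7.14, 6.97, 7.04 and 6.9 in Ox-ARP and 7.75, 7.77, 7.5 and 7.85 in Basal-ARP, a fall of 0.71 ± 0.13 (adjusted p = 0.00062). Its groups were well separated, and its call held under each alternative tried. Zfp148 read 8.04, 8.1, 8.18 and 7.88 in Ox-ARP against 8.73, 8.45, 8.77 and 8.8 in Basal-ARP, and fell by 0.64 ± 0.15 (adjusted p = 0.0053), close to its difference before capture. Zfp281, a GC-box factor of pluripotent cells related to Zfp148, read 8.3, 8.44, 8.39 and 8.53 in Ox-ARP against 9.01, 8.79, 9.01 and 9.02 in Basal-ARP (-0.54 ± 0.12, adjusted p = 0.003). It had no like difference before capture (-0.05 ± 0.12). Both calls, of Zfp148 and Zfp281, were lost with median scaling. Zfp386 (-0.80 ± 0.14), Zfp597 (-0.79 ± 0.09), Zfp46 (-0.62 ± 0.09), Zfp346 (-0.60 ± 0.11), Zfp39 (-0.59 ± 0.11) and Zfp275 (-0.52 ± 0.15) also fell, and Zfp275 lost its call without replicate 4 of Ox-ARP. The Zfp386 probe was detected on 1 Ox-ARP array. That gene's second probe, detected on 1 array of each group, had means of 5.37 in Ox-ARP and 5.26 in Basal-ARP. The other Zfp346 probe, which was brighter, had means of 8.8 and 8.86.

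Zfp771 led the raised genes on its probe ILMN_2848353, which was detected on all arrays. The probe read 7.51, 7.72, 7.45 and 7.57 in Ox-ARP, against 6.93, 6.96, 6.68 and 6.77 in Basal-ARP. The groups stood apart by 0.73 ± 0.12 (adjusted p = 0.00033), and the call held under each alternative tried. Probe ILMN_2848354 was detected on 4 Ox-ARP arrays and 0 Basal-ARP arrays and was at least 1.46-fold higher in Ox-ARP. It was kept through Ox-ARP alone, so its higher level there was part of the choice and adds no support. Zfp213 read 7.44, 7.38, 7.2 and 7.43 in Ox-ARP against 7.02, 6.63, 6.25 and 6.95 in Basal-ARP, a rise of 0.65 ± 0.14 (adjusted p = 0.0024) without overlap.

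Zfp598, whose protein ubiquitylates collided ribosomes, had 6.91, 6.76, 6.57 and 6.74 in Ox-ARP and 6.18, 6.44, 6.15 and 6.41 in Basal-ARP. It rose by 0.45 ± 0.14 (adjusted p = 0.02) without overlap, and the call was lost without replicate 1 of Ox-ARP or replicate 3 of Basal-ARP. Zfp593, the mouse counterpart of a yeast factor in export of the large ribosomal subunit, read 7.72, 7.91, 8.17 and 8.13 in Ox-ARP against 7.43, 7.4, 7.57 and 7.53 in Basal-ARP, a rise of 0.50 ± 0.13 (adjusted p = 0.01), with the captured groups again apart. Zfp653 (0.61 ± 0.15), Zfp954 (0.53 ± 0.13), Zfp523 (0.43 ± 0.08), Zfp524 (0.43 ± 0.13) and Zfp768 (0.45 ± 0.16) rose as well. Of these, Zfp768 lost its call in 14 of the 33 alternatives, and Zfp524 without replicate 2 of Ox-ARP or replicate 3 of Basal-ARP.

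**Figure D3:**
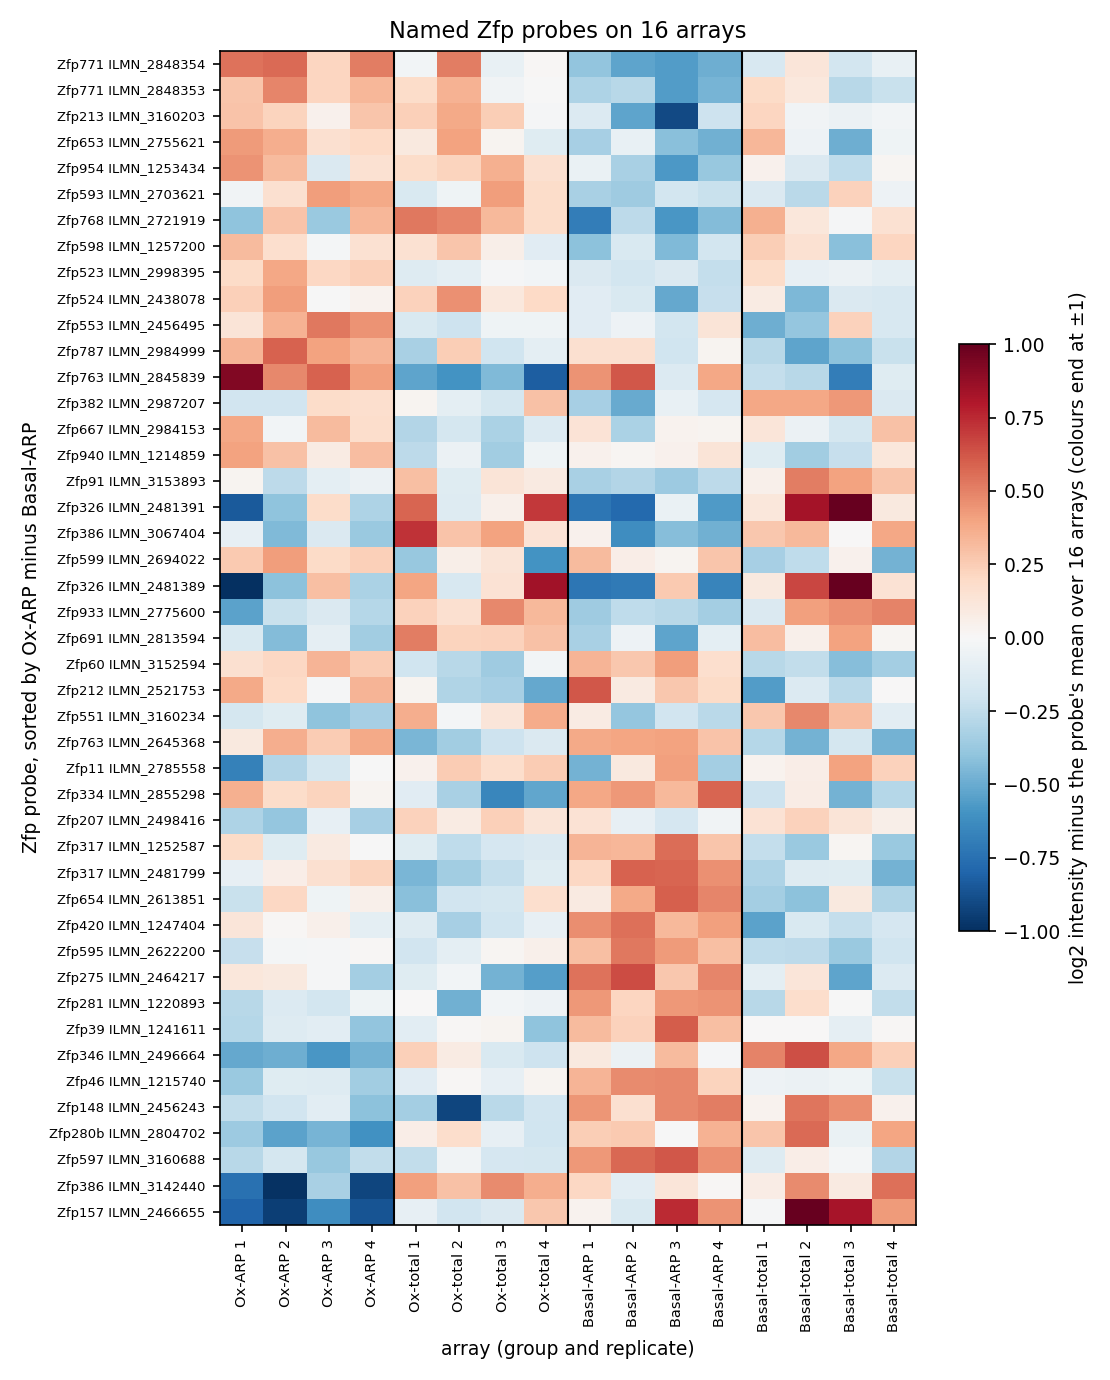
Log2 intensity of the 45 named Zfp probes on the 16 arrays (columns, by group and replicate), each minus the probe's own mean over all arrays, red above and blue below, with probes sorted by Ox-ARP minus Basal-ARP. The top rows, such as Zfp771, are bluest in Basal-ARP, and rows from Zfp317 to Zfp597 are reddest in Basal-ARP, with Zfp346 and Zfp280b among the exceptions.

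Whether capture acted differently after peroxide was tested directly, by subtracting the capture difference of untreated cells from that of peroxide-treated cells. Of 190 Zfp probes 2 had a positive difference called and 4 a negative one, and 184 were not called. Over all probes 0.778% were called higher and 1.74% lower, beside 1.05% and 2.11% of the Zfp probes, so the shares were close. The median was -0.06 for Zfp probes and 0.00 for all. The split was 2 to 1 with median scaling (1.05% and 0.526%, beside 1.59% and 0.704% of all probes). It was 4 to 4 with the authors' processed values (2.11% each, beside 1.97% and 1.45% of all probes).

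Zfp597, Zfp46 and Zfp595 shared one pattern: highest in Basal-ARP and close together elsewhere. Zfp597 read 8.19, 8.29, 8.09 and 8.22 in Ox-ARP and 8.22, 8.43, 8.3 and 8.29 in Ox-total, against 8.9, 9.04, 9.09 and 8.92 in Basal-ARP and 8.34, 8.53, 8.45 and 8.17 in Basal-total. Basal-ARP overlapped no other group. Capture changed it by -0.11 ± 0.09 after peroxide (not called) and raised it by 0.62 ± 0.09 without, a difference of -0.73 ± 0.13 (adjusted p = 0.0099).

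Zfp46 had 9.79, 10.04, 10.03 and 9.81 in Ox-ARP and 10.05, 10.17, 10.08 and 10.19 in Ox-total, against 10.5, 10.63, 10.64 and 10.38 in Basal-ARP and 10.11, 10.1, 10.12 and 9.94 in Basal-total. Its Ox-ARP arrays lay below all its Ox-total arrays (-0.20 ± 0.09, not called), while Basal-ARP stood above Basal-total by 0.47 ± 0.09. The difference of the changes was -0.67 ± 0.13 (adjusted p = 0.011). Zfp595 read 5.7, 5.91, 5.92 and 5.94 in Ox-ARP and 5.74, 5.83, 5.95 and 5.98 in Ox-total, against 6.23, 6.46, 6.36 and 6.23 in Basal-ARP and 5.68, 5.67, 5.56 and 5.73 in Basal-total. Its change on capture was -0.01 ± 0.09 after peroxide and 0.66 ± 0.09 without, a difference of -0.67 ± 0.13 (adjusted p = 0.011). All 3 of these calls were lost with median scaling, with no normalization between arrays and on each chip alone. They were also lost on leaving out replicate 1, 2 or 4 of every group.

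Zfp386 stood apart in Ox-ARP. On probe ILMN_3142440 it read 6.42, 6.11, 6.34 and 6.23 in Basal-ARP against 6.29, 6.69, 6.31 and 6.77 in Basal-total, overlapping groups with a difference of -0.24 ± 0.14 (not called). Set against the loss after peroxide given above, the difference of the changes was -0.90 ± 0.20 (adjusted p = 0.022), a size that rests on an Ox-ARP group with 1 detected array. The gene's second probe showed no such difference (-0.03 ± 0.21, adjusted p = 0.96) and was near the detection limit in both captured groups, with 1 array detected in each. The call was lost without replicate 2 or 4 of Ox-ARP, replicate 3 of Ox-total or replicate 1 of Basal-total.

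Zfp523, a relative of the small nuclear RNA gene activator Staf, went the other way. It read 10.33, 10.52, 10.34 and 10.37 in Ox-ARP and 10.01, 10.04, 10.12 and 10.11 in Ox-total, against 9.99, 9.95, 9.99 and 9.9 in Basal-ARP and 10.32, 10.05, 10.08 and 10.04 in Basal-total. Capture raised it by 0.32 ± 0.08 after peroxide (adjusted p = 0.0084) and gave -0.17 ± 0.08 without (not called), a difference of 0.48 ± 0.12 (adjusted p = 0.036). Its call was lost with median scaling and on leaving out replicate 2 or 4 of Ox-ARP, replicate 1, 2 or 3 of Ox-total, replicate 2 or 4 of Basal-ARP or replicate 1 of Basal-total. The other positive call was on Zfp771 probe ILMN_2848354. It was detected on 0 Basal-ARP arrays and 1 Basal-total array and was kept through Ox-ARP alone, so no size is given for it here.

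The well detected Zfp771 probe, ILMN_2848353, was called only with a block. It read 7.51, 7.72, 7.45 and 7.57 in Ox-ARP and 7.42, 7.58, 7.2 and 7.23 in Ox-total, against 6.93, 6.96, 6.68 and 6.77 in Basal-ARP and 7.43, 7.34, 6.96 and 7.01 in Basal-total. The highest Basal-ARP array lay level with the lowest Basal-total array and below both peroxide groups, while Ox-ARP and Ox-total overlapped. Capture gave 0.21 ± 0.12 after peroxide (not called) and -0.35 ± 0.12 without (adjusted p = 0.033), and the call without peroxide was lost without replicate 3 or 4 of Basal-ARP or replicate 1 or 2 of Basal-total. The difference of the changes was 0.56 ± 0.17, with an adjusted p of 0.083, against 0.01 with chip as a block. The chip block also called Zfp219 (0.37, adjusted p = 0.046), Zfp420 (-0.51, adjusted p = 0.032) and Zfp715 (-0.46, adjusted p = 0.038).

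**Figure D4:**
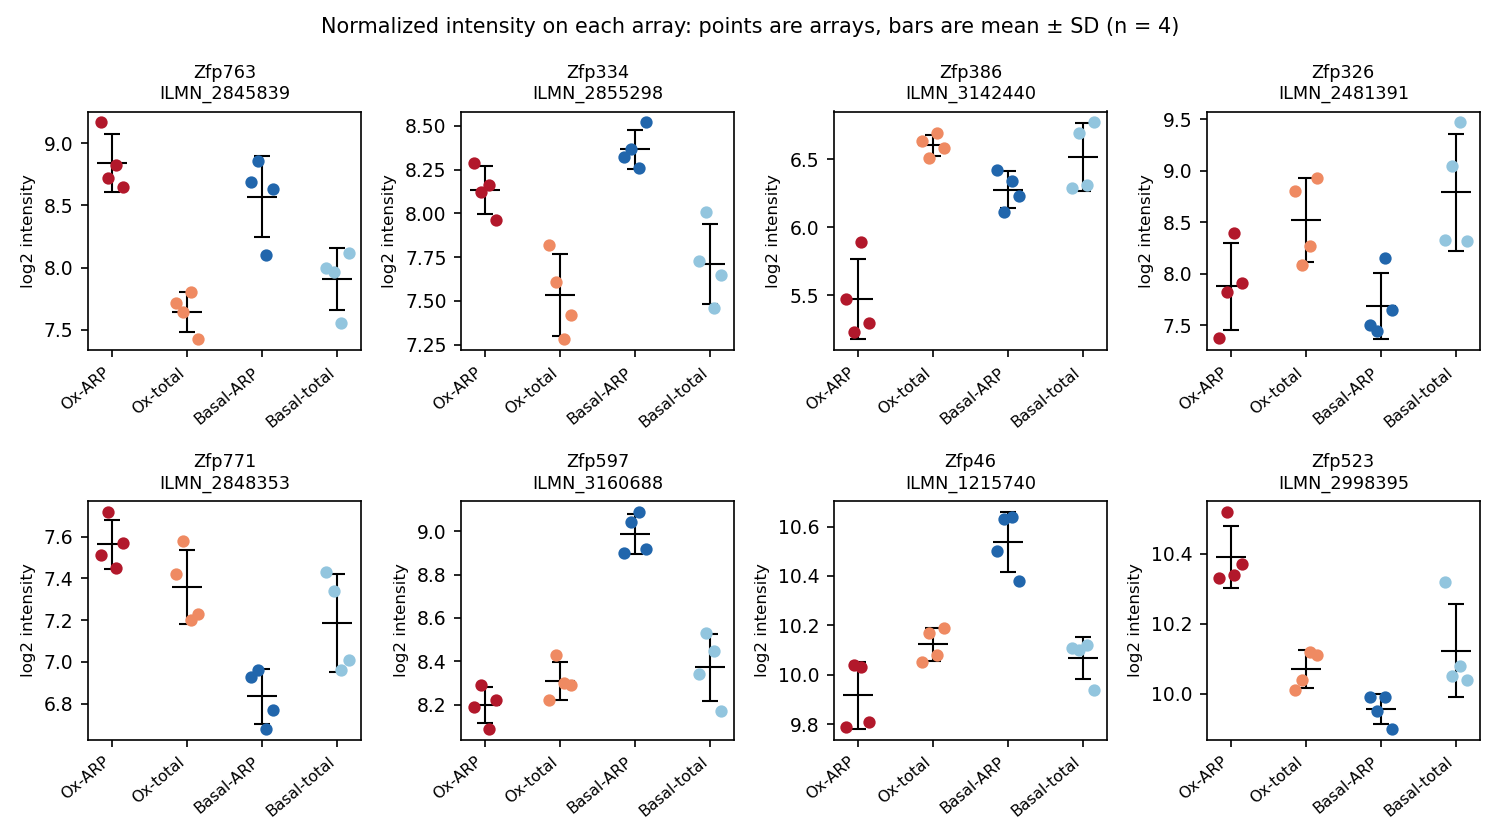
Log2 intensity on each array for 8 Zfp probes, by group (points are arrays, the bar is the mean ± SD, n = 4 arrays), each panel with its own axis. Zfp763 and Zfp334 are high in both captured groups, Zfp326 is low in Basal-ARP and overlaps between the peroxide groups, Zfp386 is low in Ox-ARP, Zfp771 is low in Basal-ARP, Zfp597 and Zfp46 are high in Basal-ARP, and Zfp523 is high in Ox-ARP.

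Taken role by role, the lists were small, and their counts are descriptions. Over all probes 13.6% rose and 13.4% fell on capture after peroxide, and 16.7% and 15.2% without it. In Ox-ARP against Basal-ARP 13.8% of all probes rose and 15.4% fell. Of 4 listed CCCH factors, 3 were on the platform. The CCCH gene Zfp36, whose protein tristetraprolin destabilizes AU-rich mRNAs, was the only 1 of these that passed detection. It fell on capture after peroxide (-0.35 ± 0.11, adjusted p = 0.027) and was not called without it (-0.12 ± 0.11) or in Ox-total against Basal-total (0.19 ± 0.11). Its call was lost without replicate 2, 3 or 4 of Ox-ARP or replicate 1 or 2 of Ox-total, and the fall was -0.48 on chip 1 and -0.22 on chip 2. Among 7 RNA and ribosome associated genes with 11 probes, 0 rose and 2 fell on capture after peroxide (Zfp207 and Zfp346), and 0 rose and 3 fell without it (Zfp346 and Zfp326, the last on 2 probes). In Ox-ARP against Basal-ARP 2 rose, Zfp593 and Zfp598, and 1 fell, Zfp346. Of the 11 probes 18.2% thus fell on capture after peroxide and 27.3% without it. In Ox-ARP against Basal-ARP 18.2% rose and 9.09% fell. Zfp106, whose protein binds RNA and is needed by motor neurons, gave -0.11 ± 0.12 after peroxide and 0.20 ± 0.12 without on one probe, and was not called in any comparison. Zfp638 had 0.16 ± 0.24 and 0.47 ± 0.24 on capture, not called either.

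Of 10 listed KRAB factors of imprints and retroelements, 5 were on the platform, and 2 of these passed detection. Zfp30 rose on capture without peroxide (0.29 ± 0.10, adjusted p = 0.038) and had 0.21 ± 0.10 after it (not called). The call was lost without replicate 1, 3 or 4 of Basal-ARP or replicate 2, 3 or 4 of Basal-total, and the difference was 0.08 on chip 1 and 0.49 on chip 2. Zfp809, which recognizes the primer binding site of murine leukemia virus, gave -0.47 ± 0.24 and -0.05 ± 0.24 in those captures and was not called. Of 5 neural and developmental genes with 7 probes, only Zfp423, a partner of Ebf and Smad proteins in cerebellar development, was called. In each capture 14.3% of the 7 probes fell, beside 13.4% of all probes after peroxide and 15.2% without it. On one probe Zfp423 read 7.6, 7.3, 7.5 and 7.44 in Ox-ARP and 7.72, 7.99, 7.7 and 7.6 in Ox-total (-0.29 ± 0.10, adjusted p = 0.043). The untreated groups read 7.44, 7.56, 7.51 and 7.57 in Basal-ARP and 7.7, 7.67, 7.78 and 8.03 in Basal-total (-0.28 ± 0.10, adjusted p = 0.048). Ox-ARP touched the Ox-total range, Basal-ARP stayed below Basal-total, and the second probe gave -0.25 ± 0.13 and -0.26 ± 0.13 without being called. The call was lost in 18 of 32 alternatives after peroxide and in 22 of 32 without it. Leaving out replicate 2, 3 or 4 of Ox-ARP or replicate 1, 2 or 3 of Ox-total ended the first, and leaving out any Basal-ARP array or replicate 1, 3 or 4 of Basal-total ended the second. Zfp335, Zfp365, Zfp609 and Zfp292 were not called in any of the 5 comparisons.

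Among 6 transcription and chromatin regulators with 9 probes, 0 were called on capture after peroxide, with 0 at an unadjusted p under 0.05. Over all probes 13.6% rose and 13.4% fell there. Without peroxide Zfp281 rose (0.47 ± 0.12) and Zfp91 fell, each 11.1% of the 9 probes, beside 16.7% and 15.2% of all probes. In Ox-ARP against Basal-ARP, Zfp148 and Zfp281 fell and 1 of 3 probes of Zfp410 rose (0.41 ± 0.12, adjusted p = 0.018), the others giving 0.06 ± 0.12 and 0.23 ± 0.10. Of the 9 probes 11.1% thus rose and 22.2% fell, beside 13.8% and 15.4% of all probes. The Zfp410 call was lost without replicate 3 or 4 of Basal-ARP. Zfp410 is an activator of Chd4, a nucleosome remodelling gene. Of 3 SCAN domain genes, whose proteins pair through that domain, Zfp397 moved opposite to Zfp213. It rose on capture without peroxide (0.48 ± 0.12, adjusted p = 0.0054) and fell in Ox-ARP against Basal-ARP (-0.40 ± 0.12, adjusted p = 0.017), a call lost without replicate 2 or 4 of Ox-ARP or replicate 4 of Basal-ARP. Zfp263 was not called.

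For genes with several probes, the probes were set side by side. Of 155 genes, 29 had more than 1 probe among the 190, and in 0 of them were probes called in opposite directions within any comparison. A gene was called on more than 1 probe in 4 of 13 genes with a call on capture after peroxide (Zfp212, Zfp386, Zfp763 and Zfp787), in 7 of 11 on capture without it (Zfp212, Zfp317, Zfp326, Zfp654, Zfp763, Zfp771 and Zfp787) and in 3 of 10 in Ox-ARP against Basal-ARP (Zfp317, Zfp654 and Zfp771). The Zfp771 pair includes the dim probe ILMN_2848354. The Zfp212 calls in both captures include probes that passed through the captured groups alone. Of the Zfp386 pair, 1 probe passed through the total groups alone, and the other was detected on 1 Ox-ARP array. For these genes a call on more than 1 probe adds no support. The other 9, 4 and 7 genes were called on 1 probe alone. Probes of one gene were not compared in this way over all genes, so these counts have no background beside them. For 126 genes with a single probe the counts were 9 higher and 11 lower after peroxide, and 22 and 9 without. Those are 7.14% and 8.73%, and 17.5% and 7.14%, beside 13.6% and 13.4%, and 16.7% and 15.2%, of all probes. Most genes with a call were thus called on a single probe in the peroxide capture and in captured RNA, and Zfp326 and Zfp346 each held a called probe beside one near 0.

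**Figure D5:**
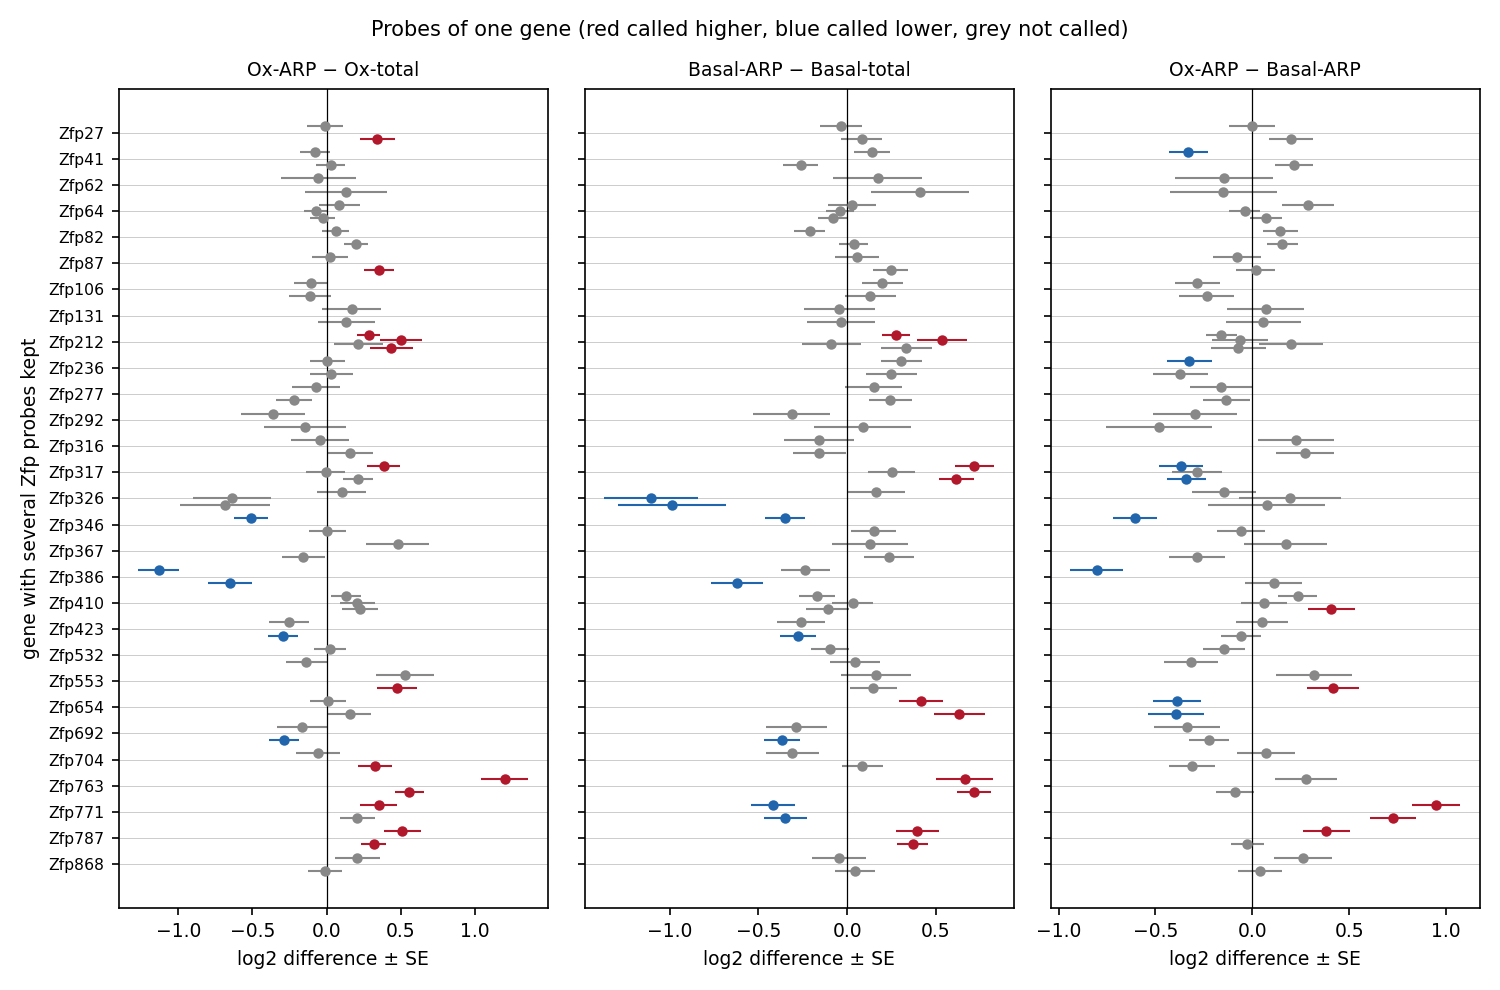
Log2 difference ± limma's standard error for every probe of the 29 genes with several Zfp probes, in 3 comparisons, with red for called higher, blue for called lower and grey for not called. No gene holds both colours in a panel, while Zfp326 shows 2 blue probes and 1 grey one in Basal-ARP minus Basal-total.

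The partners of KRAB proteins showed calls in both directions. Of 13 genes with 14 probes, 3 probes rose and 3 fell on capture after peroxide, 3 rose and 2 fell without it, and 1 rose and 6 fell in Ox-ARP against Basal-ARP. Those are 21.4% and 21.4%, 21.4% and 14.3%, and 7.14% and 42.9%, where all probes had 13.6% and 13.4%, 16.7% and 15.2%, and 13.8% and 15.4%. Trim28 (0.12 ± 0.11 and 0.15 ± 0.11 on capture after and without peroxide) and Setdb1 (-0.01 ± 0.09 and 0.19 ± 0.09) were not called. Cbx5, which encodes heterochromatin protein HP1 alpha, fell in both captures (-1.09 ± 0.15 and -0.87 ± 0.15), and Hdac2, a histone deacetylase, rose in both (0.47 ± 0.08 and 0.40 ± 0.08). One Chd4 probe fell in both (-1.23 ± 0.19 and -0.94 ± 0.19), whereas the other had -0.04 ± 0.11 and 0.12 ± 0.11.

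The CCR4-NOT deadenylase, which CCCH proteins recruit, had 10 genes with 19 probes. On capture 1 rose and 3 fell after peroxide, 7 rose and 1 fell without it, and 0 rose and 7 fell in Ox-ARP against Basal-ARP. After peroxide these are 5.26% raised and 15.8% lowered, beside 13.6% and 13.4% of all probes, and without it 36.8% and 5.26%, beside 16.7% and 15.2%. In Ox-ARP against Basal-ARP 36.8% fell, beside 15.4% of all probes, with 13.8% of all probes raised. Its regulator Btg1 carried the only interaction call of these genes (-0.87 ± 0.15, adjusted p = 0.0094), on 1 of 3 probes. The subunit Cnot3 fell in both captures (-0.70 ± 0.11 and -0.71 ± 0.11).

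Genome order was used to see whether clustered Zfp genes stood apart from solitary ones. With the 3 protein-coding genes on each side taken from the RefSeq table of GRCm38.p6, 104 probes (86 genes) had a Zfp neighbour and 86 probes (69 genes) had none. On capture after peroxide 15.4% of the probes with a Zfp neighbour rose and 5.77% fell, against 6.98% and 11.6% of those without. On capture without peroxide the shares were 21.2% and 9.62%, against 11.6% and 8.14%. In Ox-ARP against Basal-ARP 8.65% rose and 12.5% fell, against 8.14% and 20.9%. Over all probes the shares were 13.6% and 13.4%, 16.7% and 15.2%, and 13.8% and 15.4%, in that order. Raised probes with a Zfp neighbour include those of Zfp599, Zfp940 and Zfp212 that passed through the captured groups alone. Zfp322a, without a neighbour, passed so too. Zfp212, Zfp763 and Zfp787 count with several probes each. These are descriptions with no test, and cross-hybridization between related neighbours was not tested. The longest run of neighbours, Zfp30, Zfp790, Zfp940, Zfp420 and Zfp27 with 6 probes, was positive on 5 probes in each capture, with medians of 0.21 after peroxide and 0.25 without. Its Zfp940 probe passed through the captured groups alone, so its higher level there was part of the choice.

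Other zinc finger families were set beside the Zfp genes by symbol. Zbtb genes (22 probes) had 0 higher and 10 lower in Ox-ARP against Basal-ARP, a median of -0.30, and 1 higher and 3 lower on capture after peroxide and 4 and 0 without it. Zc3h genes (17 probes) had 1 higher and 4 lower in that peroxide comparison, with a median of -0.27. Zscan and Zkscan genes (11 probes) had 2 and 3, with a median of -0.09, close to that of the Zfp probes, and Klf genes (8 probes) had 0 and 1. Over all probes the median there was 0.02, with 13.8% higher and 15.4% lower, and 45.5% of the Zbtb and 23.5% of the Zc3h probes were lower. On capture all probes had 13.6% higher and 13.4% lower after peroxide and 16.7% and 15.2% without it. No test compared these families with the Zfp genes or with all probes.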

How the data were processed

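Per the labels' protocols, amplified biotinylated RNA from 16 samples was hybridised to Illumina mouse bead arrays. The deposited scanner table gives, per the file headers, a linear bead intensity and a detection p-value per probe and array, and the smallest step in those p-values implies 798 negative controls. Per the submitters' processing notes, GenomeStudio 2010.2 was used. A processed intensity table was deposited too, with values below 0 and an unstated background method, which was floored at 1, taken to log2 and used as an alternative.

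Scanner intensities were corrected with normexp (negative control distribution from the detection p, offset of 16), quantile normalized and taken to log2 in limma 3.58.1 (R 4.3.3). With lmFit and eBayes, 4 group means were fitted for each of 10794 kept probes (12 residual and 5.44 prior degrees of freedom), and 5 differences were taken. The offset draws fold changes of dim probes towards 0. No pair of arrays was identical (lowest correlation 0.948). The number of arrays limits the precision. The fit was run on simulated data with independent noise on each array. The real arrays were not independent in this way: after removal of group means, same-numbered arrays had a median correlation of 0.318. The simulation therefore cannot show how the fit handles such structure.

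Symbols came from the platform annotation (23978 probes with 1 symbol, 1719 with none), and all 190 Zfp probes matched RefSeq by gene identifier. The named probes were the up to 10 most raised and 10 most lowered per difference among called probes whose 4 same-numbered comparisons all had that sign, together with members of the role lists. Zfp979, Zfp704, Zfp322a, Zfp692 and the second probes of named genes fall outside this rule and were chosen after their values were seen. The Zfp genes, the lists and the tests were chosen with earlier results of these data known. Alternatives were the background correction, offset, normalization, filter, 1 probe per gene, chip and replicate blocks, each chip alone and leaving out arrays. Protein, probe and promoter sequences were not used here.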

Additional observations from a re-analysis of the deposited data

Results flagged for a closer look

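For 6 Zfp probes the change on capture differed with peroxide by the test of the difference itself. These differences, with peroxide minus without, were -0.9 for Zfp386, -0.73 for Zfp597, -0.67 for Zfp46, -0.67 for Zfp595, 0.48 for Zfp523 and 0.77 for Zfp771. The Zfp771 value, on probe ILMN_2848354, is no measured size: the probe was detected on 0 Basal-ARP arrays and 1 Basal-total array, and it was kept through Ox-ARP alone, so its high level there was part of the choice. The Zfp386 probe was detected on 1 Ox-ARP array. All 6 had the same sign on both chips and were called with chip as a block. The chips are parts of the arrays that gave the calls, so neither is independent support. Over all probes the chip block called 3.57% higher and 4.1% lower, beside 0.778% and 1.74% without it. None of the 6 calls held under each alternative. All 6 were lost on each chip alone, with no normalization between arrays, and on leaving out replicate 1, 2 or 4 of every group. Over the alternatives they ran from -1.25 to -0.47 for Zfp386, -0.83 to -0.57 for Zfp597, -0.73 to -0.52 for Zfp46, -0.82 to -0.36 for Zfp595, 0.36 to 0.61 for Zfp523 and 0.36 to 1.38 for Zfp771.

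A single array was flagged when its gap from the other 3 of its group was a large share of the group's range. Chance alone flags about 5% of groups. In 180 groups of 4 arrays (45 named probes), 13 single arrays were flagged. These were, in Ox-ARP, replicate 3 for Zfp771 (5.74) and replicate 1 for Zfp595 (5.7). In Ox-total they were replicate 2 for Zfp771 (6.04) and for Zfp281 (8.09). In Basal-ARP they were replicate 3 for Zfp326 (8.16) and replicate 2 for Zfp281 (8.79). In Basal-total they were replicate 1 for Zfp523 (10.32), Zfp213 (7.37) and Zfp933 (5.93), replicate 3 for Zfp598 (6.17) and Zfp39 (7.33), and replicate 4 for Zfp46 (9.94) and Zfp382 (6.33). The Basal-total arrays held 7 of the 13. In a tight group the gap was small, as for Zfp39, whose other Basal-total arrays read 7.42, 7.42 and 7.43. Neither count was tested against chance.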

How the results depend on the processing

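No called Zfp probe turned its sign under any alternative. All 49, 38, 47 and 6 calls (capture without peroxide, capture with it, peroxide in captured RNA, interaction) were also made with chip as a block and had the same sign on both chips. The chips and the alternatives reuse the arrays that gave the calls, so this is no independent support. The chip block also made more calls over all probes in each comparison. Counts below are higher and lower in Basal-ARP against Basal-total, Ox-ARP against Ox-total, Ox-total against Basal-total, Ox-ARP against Basal-ARP and the interaction, and only those that moved are given. Calls over all probes changed with these settings too, so the counts alone do not single out the Zfp probes. Each chip alone has fewer arrays: chip 1 gave 17 and 8, 6 and 6, then 6 and 8 in captured RNA and 0 and 0 for the interaction, and chip 2 gave 16 and 3, 2 and 5, 4 and 13, and 0 and 0 (interaction median -0.158). Median scaling gave 18 higher in the first, 10 lower and a median of 0.094 in the second, 11 lower and a median of 0.016 in captured RNA, and 1 lower in the interaction. No normalization gave 3 and 5 (median -0.03), 2 and 2, 9 and 2 (median 0.069), and 0 and 0 (median 0.065). The authors' values gave medians of 0.14, 0.131 and -0.096 in the first 3, 38 higher in the second, 2 lower in Ox-total against Basal-total and 4 higher in the interaction. With 1 probe per gene 14 rose in the second and 1 in the interaction, where 1 also rose without background correction, with an offset of 50 and with probes detected on all arrays alone. Chip as a block called 2 lower in Ox-total against Basal-total and 4 higher in the interaction. What caused these moves was not tested.

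Replicate numbers were not taken as pairs: of 24 same-numbered pairs 20 correlated above 0.1, from -0.265 to 0.7, and 9 of 16 arrays correlated best with their own number. The replicate block gave 48 and 20, 31 and 21, 0 and 2, 20 and 44, and 5 and 9. Those are 25.3% and 10.5%, 16.3% and 11.1%, 0% and 1.05%, 10.5% and 23.2%, and 2.63% and 4.74%. Over all probes that block called 22.2% and 20.2%, 19.1% and 17.3%, 0.241% and 0.658%, 20.1% and 19.7%, and 4.52% and 5.1%.

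Leaving out arrays gave 19 to 37 higher and 5 to 18 lower (median 0.054 to 0.127) without peroxide, 9 to 25 and 9 to 17 (-0.024 to 0.056) with it, 0 and 0 to 1 (-0.036 to 0.021) in total RNA, 8 to 16 and 18 to 33 (-0.104 to -0.045) in captured RNA, and 0 to 3 and 0 to 5 (-0.11 to -0.036) for the interaction. Single arrays that moved a count by over 1.5 times were Basal-ARP replicate 2 or 4 (11 lower without peroxide) and Ox-total replicate 1 (10 lower with it). Without Basal-total replicate 3 the first median was 0.127, and without Basal-ARP replicate 1 or 3 there was 1 lower call in total RNA. For the interaction, 0 were higher without replicate 2 or 4 of Ox-ARP, 1 or 3 of Ox-total or 2 of Basal-ARP, and 1 without replicate 2 of Ox-total, 4 of Basal-ARP or 1 or 2 of Basal-total. Dim probes near the detection limit have compressed differences.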
